A study of Mus musculus with 4 samples.

Results

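The Hox genes are the 39 protein-coding genes of the mouse whose symbols join Hox, a cluster letter from a to d and a number. They were picked out by that symbol in the GENCODE M21 annotation of the mm10 build, with no measured value used, and all 39 were among the 55573 gene identifiers of the count table. RNA immunoprecipitation sequencing (RIP-seq), which sequences the RNA that an antibody holds on beads, had been done with an antibody against Runx1, a transcription factor of blood formation, and with IgG, a non-specific antibody that gives the background. There were 2 libraries of each, and the comparison asks which RNAs the Runx1 antibody recovered beyond IgG. Both groups came from Cd31+ cells (CD31 is an endothelial surface protein) of the hind (caudal) portion of E10.0 C57BL/6 mouse embryos labelled WT, gathered by fluorescence-activated sorting, and the antibody was the only labelled difference between them. The labels do not say what the replicates share (embryos, a sort), so that p-values measure a spread between libraries that may be only technical. Values in each series below stand in the order Runx1 replicate 1, Runx1 replicate 2, IgG replicate 1 and IgG replicate 2.

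Hox genes encode transcription factors that tell cells their place along the head to tail axis. Each cluster arose from a common ancestral cluster, so that genes with the same number in different clusters are paralogues. Low numbers lie at the 3′ end of a cluster and are switched on first and nearest the head, whereas high numbers lie at the 5′ end, are switched on last and mark the trunk's end, the tail bud and the distal limbs. Their proteins bind DNA through the homeodomain, commonly together with Pbx and Meis proteins, and Polycomb and Trithorax proteins keep the clusters silent or active. In endothelium and blood-forming tissue Hox genes mark position and, in some lineages, self-renewal.

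The members fall into 4 clusters. Hoxa holds 11 of them on chromosome 6 on the minus strand, and Hoxb holds 10 on chr11:96194316-96368256 on the plus strand. Hoxc holds 9 on chr15:102921103-103036852 and Hoxd holds 9 on chr2:74668310-74765142, both on the plus strand. These coordinates are those of GENCODE M21 on GRCm38, which is the mm10 assembly.

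The stretch that all members share is the homeobox, the 180 bases that encode the homeodomain, and it was found in 39 of 39. That of Hoxc8, the member with the highest mean level per kb of exon, is shown as read from its GENCODE M21 transcript, with capitals marking the 18 bases for the part of the recognition helix by which homeoboxes were located.
Hoxc8, chr15:102992571-102992750, plus strand: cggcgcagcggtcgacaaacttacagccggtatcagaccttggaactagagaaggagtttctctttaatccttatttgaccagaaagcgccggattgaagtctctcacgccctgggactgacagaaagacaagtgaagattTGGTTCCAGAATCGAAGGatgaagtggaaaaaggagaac

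Likeness between homeoboxes bears on how well short reads from that stretch can tell members apart. Among the 42 pairs with the same number the median identity was 80.6% (range 67.2% to 93.9%). The 172 pairs within 1 cluster had a median of 61.7%, and the remaining 527 pairs had a median of 60.6%. The longest identical run between any 2 homeoboxes was 52 bases, shared by Hoxa6 and Hoxb4, which carry different numbers and lie in different clusters.

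Across whole exons, few distinct windows of 50 bases, counted at every start and so overlapping, were shared between members. Hoxd3 and Hoxd4, whose annotated exons overlap, shared 339 such windows, and Hoxc5 and Hoxc10 shared 119. Hoxa6 and Hoxb4 shared 3, as many as their homeobox run holds, and 3 others joined Hoxc9 with Hoxb6 or Hoxb9. Exons of 16 members overlap those of another annotated gene, on the same strand for 9 and on the opposite strand for 10. The overlap covered 62.8% of exon bases of Hoxd3, 52.9% of Hoxb3, 52.3% of Hoxd4, 27.3% of Hoxb2 and 27.1% of Hoxa3, so that counts of these genes are uncertain. Whether strand was used in counting is not given in the sources used here. Hoxc8, Hoxa5, Hoxb6, Hoxa6 and Hoxc9, on which much of the text below turns, overlap no other gene.

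Hox transcripts made up a small and similar part of every library. The libraries held 1675488, 1887301, 3843318 and 2482045 gene counts, of which 1454, 1903, 3865 and 2356 fell on Hox genes. That is 868, 1008, 1006 and 949 CPM, counts scaled to 1e6 gene counts of the library, with Wilson 95% intervals of 824 to 914, 964 to 1055, 974 to 1038 and 912 to 988. These intervals cover counting error only, since reads copied by PCR are not independent molecules. Runx1 replicate 1 lay below the others and its interval did not meet those of Runx1 replicate 2 and IgG replicate 1. The Runx1 replicates stood further apart than the antibody means, although a mean of 2 libraries varies less than 1 library. The log2 ratio of mean Runx1 to mean IgG was -0.059. The replicates gave a standard deviation of 0.16, which combines the spread of single libraries, and a ratio of means varies less.

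Fewest members were detected in the shallowest library, Runx1 replicate 1. At least 1 count was present for 26, 30, 33 and 31 of the 39 members, and at least 10 counts for 22, 26, 26 and 24. At the smallest gene total, 26, 30, 31.2 and 30.4 members would be detected on average, which left Runx1 replicate 1 lowest at equal depth too. Detection in all 4 libraries was met by 26 members, 5 had no count anywhere and 8 were counted in 1 to 3 libraries. All 26 that were present throughout belong to numbers 1 to 10, of which there are 30. Of the 9 members with numbers 11 to 13, none was found in all 4 libraries, and 5 had no count in any.

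**Figure D1:**
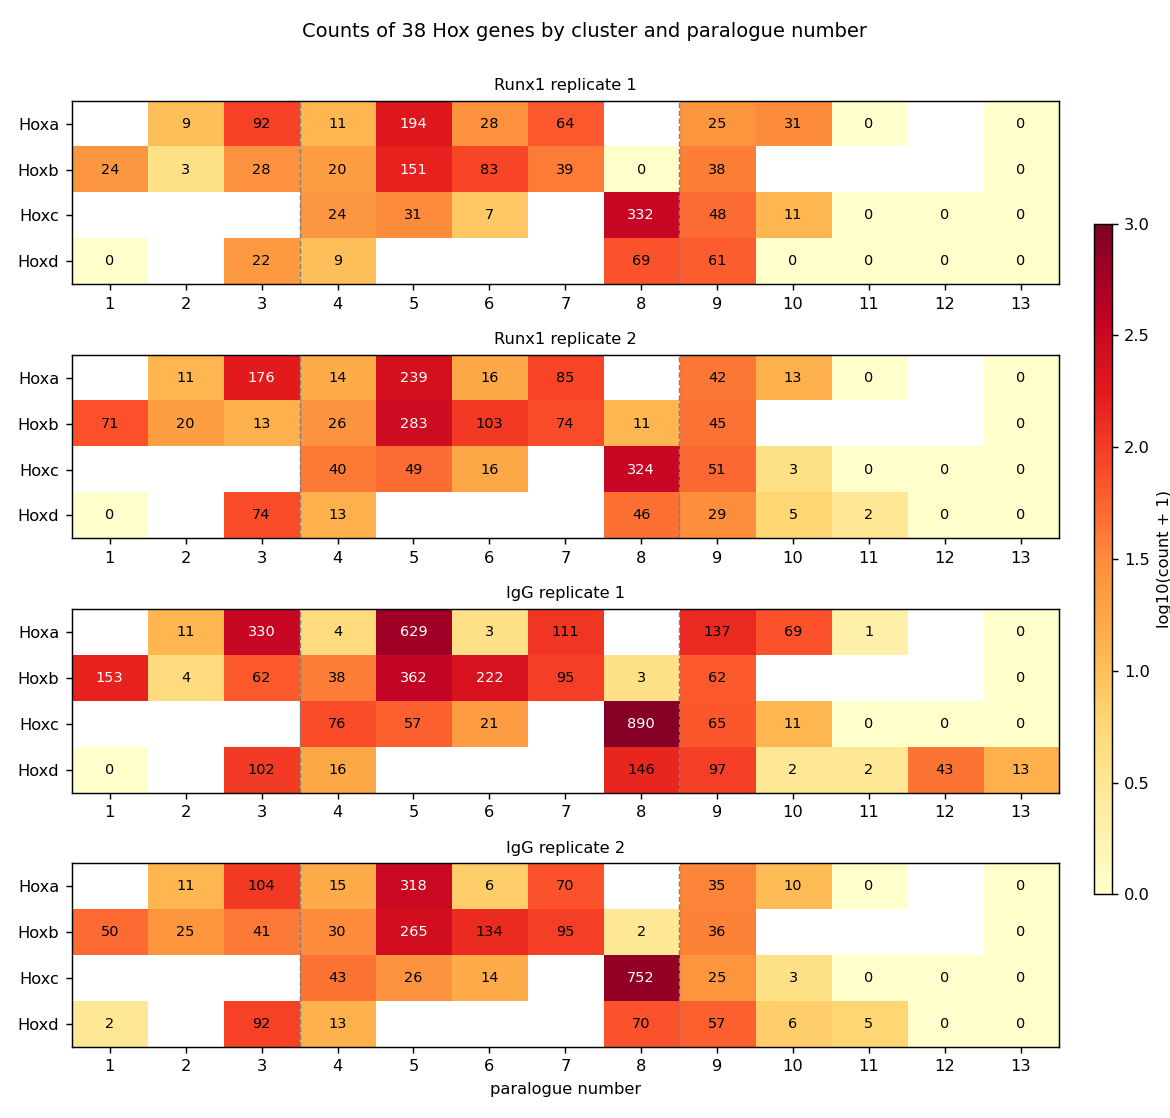
Raw counts of 38 Hox genes, 1 panel per library, with clusters a to d as rows and paralogue numbers as columns, and blank squares where no gene exists or none is reported. Most squares of numbers 1 to 10 hold counts in every panel, with Hoxb8, Hoxd1 and Hoxd10 at 0 in Runx1 replicate 1, while numbers 11 to 13 hold at most 5 counts apart from 43 counts of Hoxd12 and 13 of Hoxd13 in IgG replicate 1.

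The middle numbers carried most of the signal. Levels per kb of merged exon length allow genes to be set beside each other. They describe RNA recovered on beads, which need not equal expression in the cells. By that measure the 15 members numbered 4 to 8 made up 78.5%, 77.7%, 76.3% and 83.6% of the summed Hox level. The 8 members numbered 1 to 3 made up 7.38%, 13.1%, 12.1% and 9.22%, and the 16 members numbered 9 to 13 made up 14.1%, 9.25%, 11.6% and 7.17%. Numbers 5 and 8 were the highest, with summed levels of 100 to 130 CPM per kb for number 5 and of 71.7 to 118 CPM per kb for number 8. The shares of clusters a, b and c were alike in size, between 23.7% and 37% of the per-kb level in any library, and that of cluster d was 7.53% to 10.5%.

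**Figure D2:**
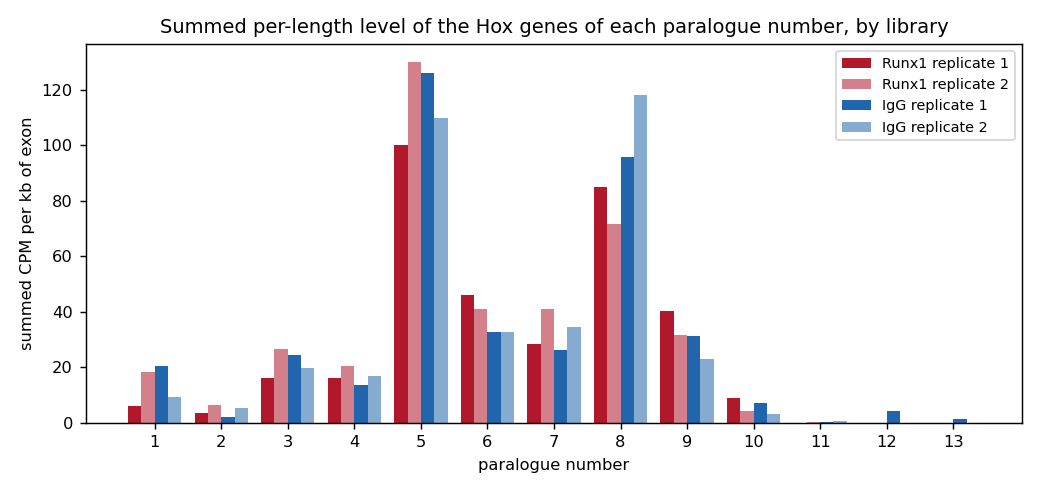
Summed level of each paralogue number in CPM per kb of merged exon, as bars from 0, 1 bar per library. Numbers 5 and 8 stand highest in all 4 libraries, and the bars fall off from number 9 to number 11.

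Hoxc8, a gene of the thoracic region, had the highest mean level. Its counts were 332, 324, 890 and 752, or 70, 60.6, 81.8 and 107 CPM per kb (79.8 ± 20.1, SD, n = 4). Both IgG libraries were higher than both Runx1 libraries. Hoxa5, which patterns the neck and lung region, followed with counts of 194, 239, 629 and 318 and levels of 61.7, 67.5, 87.2 and 68.3 CPM per kb (71.2 ± 11.1, SD, n = 4). The spreads of Hoxc8 and Hoxa5 overlapped, and each was the highest Hox gene in 2 of the 4 libraries. Hoxb5, a paralogue of Hoxa5, had counts of 151, 283, 362 and 265 and a level of 39.6 ± 9.83 CPM per kb (SD, n = 4), high in Runx1 replicate 2 and similar in the other libraries. Together, Hoxc8, Hoxa5 and Hoxb5 held 46.7%, 46.5%, 52.6% and 57.3% of the per-kb Hox level.

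The next levels were less far apart. Hoxb6 had counts of 83, 103, 222 and 134 and 27.5 ± 1.72 CPM per kb (SD, n = 4), the steadiest of the high members. Hoxb7 had counts of 39, 74, 95 and 95 and 20.3 ± 5.53 CPM per kb, and that level was higher in both libraries numbered 2 than in both numbered 1. From Hoxa7 (12.2 ± 2.8 CPM per kb) through Hoxb1, Hoxd8 and Hoxd9 to Hoxa3 (11.5 ± 4.08), 5 neighbours in the order did not differ beyond their spread. Below them the means ran without a break from 8.5 CPM per kb for Hoxc9 through 8.12 ± 8.25 for Hoxa6 and 4.65 ± 0.621 for Hoxb4 to 1.6 for Hoxc10, the lowest of those present in all libraries. The 10 highest members together held between 75.5% and 83.8% of the per-kb level of a library.

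**Figure D3:**
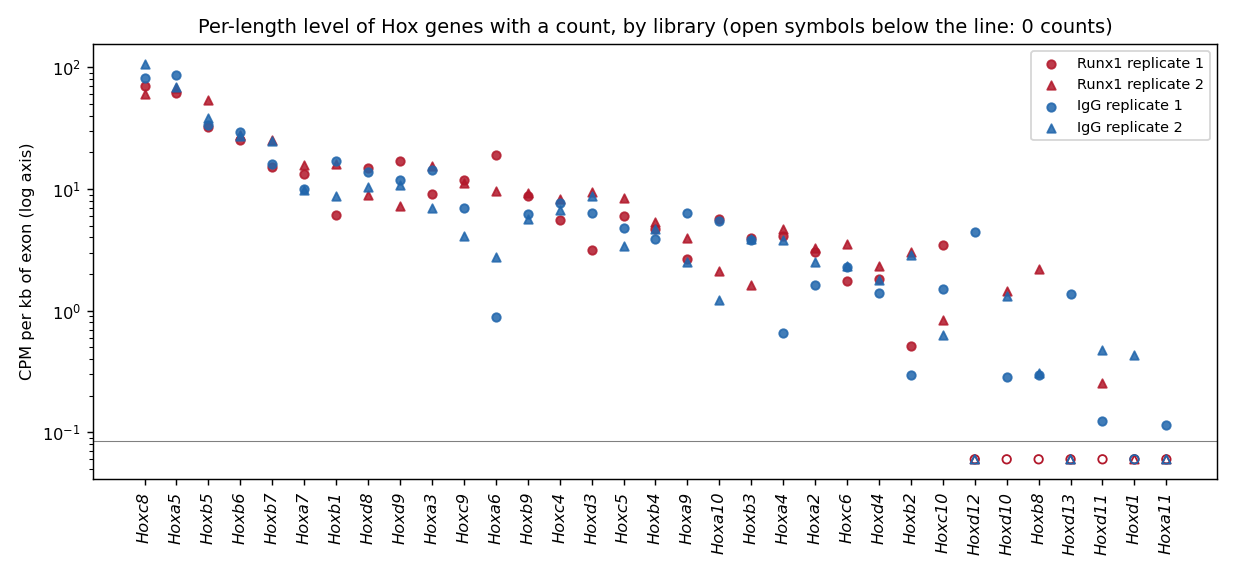
Level of 33 Hox genes with a count, in CPM per kb of merged exon on a log axis, ordered by mean, 1 symbol per library, with open symbols below the line for 0. Hoxc8 and Hoxa5 lead and overlap, the middle of the order falls gradually, and the symbols of 1 gene spread most widely among the lowest genes and at Hoxa6 and Hoxb2.

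Members with the same number were unevenly filled from cluster to cluster. Among genes numbered 5, Hoxa5 held 61.3% ± 7.09 of the per-kb level, Hoxb5 33.9% ± 6.07 and Hoxc5 4.84% ± 1.65 (SD, n = 4 libraries). Hoxc8 held 85.8% ± 3.69 of number 8, while Hoxb8, with counts of 0, 11, 3 and 2, held 0.913% on average. Hoxb8 was thus nearly empty beside Hoxb7 and Hoxb9, its neighbours in the cluster, which had 36 or more counts in every library. For number 6 the leading gene was Hoxb6 with 74.3%, and the share of Hoxa6 varied between libraries from 41.5% and 23.7% with the Runx1 antibody to 2.74% and 8.49% with IgG.

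The genes numbered 4 and 7 were shared more evenly. Hoxc4 (24, 40, 76 and 43 counts) had 42.7% of number 4 on average, Hoxb4 (20, 26, 38 and 30 counts) 27.7% ± 1.19, Hoxa4 (11, 14, 4 and 15 counts) 18.8% and Hoxd4 (9, 13, 16 and 13 counts) 10.9% ± 0.521. Hoxb7 had 62% of number 7, and Hoxa7, with counts of 64, 85, 111 and 70, had 38%. Hoxc5 (31, 49, 57 and 26 counts) and Hoxc6 (7, 16, 21 and 14 counts) completed the middle numbers. Hoxc5 was low beside its paralogues. Hoxc6 was low beside Hoxb6, but beside Hoxa6 only with the Runx1 antibody, since with IgG it held 6.97% and 7.19% of number 6. Hoxd8, with counts of 69, 46, 146 and 70, was the second gene of number 8 with 13.3%.

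The low numbers, active in the hindbrain and neck, were present at lower levels. Hoxb1, a gene of the early hindbrain and of posterior mesoderm, held 91.5% ± 6.83 of number 1 with counts of 24, 71, 153 and 50. Hoxd1 had 2 counts in IgG replicate 2 alone. Hoxa2 had counts of 9, 11, 11 and 11, which at the different library depths are 5.37, 5.83, 2.86 and 4.43 CPM. Hoxb2 was uneven, with counts of 3, 20, 4 and 25, and its libraries differed by replicate number and not by antibody. In number 3, Hoxa3, needed for thymus and parathyroid, had counts of 92, 176, 330 and 104 and 52.2% of the level, Hoxd3 (22, 74, 102 and 92 counts) had 31.4%, and Hoxb3 (28, 13, 62 and 41 counts) had 16.4%.

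All genes numbered 9 were present in every library. Hoxd9 (61, 29, 97 and 57 counts) held 37.3% of their per-kb level, Hoxc9 (48, 51, 65 and 25 counts) 26.1%, Hoxb9 (38, 45, 62 and 36 counts) 23.9% and Hoxa9 (25, 42, 137 and 35 counts) 12.6%. Hoxa9 is known for its part in blood progenitors and leukaemia, and its highest count was in IgG replicate 1. Of number 10, Hoxa10 had counts of 31, 13, 69 and 10, Hoxc10 had 11, 3, 11 and 3, and Hoxd10 had 0, 5, 2 and 6. Hoxa10 and Hoxc10 were both higher in the libraries numbered 1, under either antibody.

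Beyond number 10 only Hoxd11, Hoxd12, Hoxd13 and Hoxa11 were counted at all. Hoxa11 had 1 count, in IgG replicate 1, and Hoxd11 had 0, 2, 2 and 5. Hoxd12 had 43 counts and Hoxd13 had 13, all in IgG replicate 1, and these genes of the tail bud and distal limb had 0 in the other 3 libraries. In CPM that is 11.2 (exact Poisson 95% interval 8.1 to 15.1) for Hoxd12 and 3.38 (1.8 to 5.78) for Hoxd13. The same interval for a count of 0 reaches 3.69 counts, which are 2.2, 1.95, 0.96 and 1.49 CPM. The interval of Hoxd12 lay above all these limits. That of Hoxd13 began below the limits of the Runx1 libraries and above that of IgG replicate 2. All of these intervals cover counting error only. Hoxa13, Hoxb13, Hoxc11, Hoxc12 and Hoxc13 had no count in any library.

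The antibody comparison found no Hox gene that passed the test. The low-count filter kept 26 members, all from numbers 1 to 10, and left out 13. In edgeR's quasi-likelihood test with Benjamini-Hochberg adjustment over 12401 genes, 0.645% of all tested genes were called at a false discovery rate of 0.05 (0.306% higher and 0.339% lower with Runx1), and 0 of the 26 Hox genes. An unadjusted p under 0.05 was reached by 2 of them, Hoxc8 (lower) and Hoxa6 (higher), against 14.2% of all genes (7.36% lower and 6.88% higher). DESeq2 also called 0, against 534 of all genes, with 15 of the 26 given an adjusted p, and 2 had an unadjusted p under 0.05. With limma-voom both counts were 0, and 222 of all genes were called. The adjusted p-values of the members in edgeR ran from 0.309 to 0.99. Libraries were also scaled to the ERCC spike-ins, external RNAs added in an amount not given in the sources used here. On that scale 3 of the 26 members were called lower (Hoxa5, Hoxb6 and Hoxc8), against 3914 of all 12401 tested genes.

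Fold changes of the members lay around those of the whole table. The log2 fold change was above 0 for 15 members and below 0 for 11, with a median of 0.16 against 0.027 over all tested genes. On the spike-in scale every tested member but Hoxa6 was below 0, with a median of -1.19 against -1.25 over all genes. Without the spike-in scaling, the log2 fold change lay within 1 standard error of 0 for 20 of the 26. The standard errors of those described then ran from 0.22 to 1.39. Only 6 members had a standard error of 0.5 or less, so that for most a difference of the size seen between replicates was not detectable at this depth. In 10 of the 26 the Runx1 and IgG libraries did not overlap in CPM, against 45.4% of all tested genes. With the Runx1 antibody 8 of these were higher (24.1% of all genes) and 2 were lower (21.3% of all genes). Hoxa2 and Hoxa6 among them passed the low-count filter, which is scaled to depth, only through their Runx1 libraries, so that nothing is read from these counts.

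**Figure D4:**
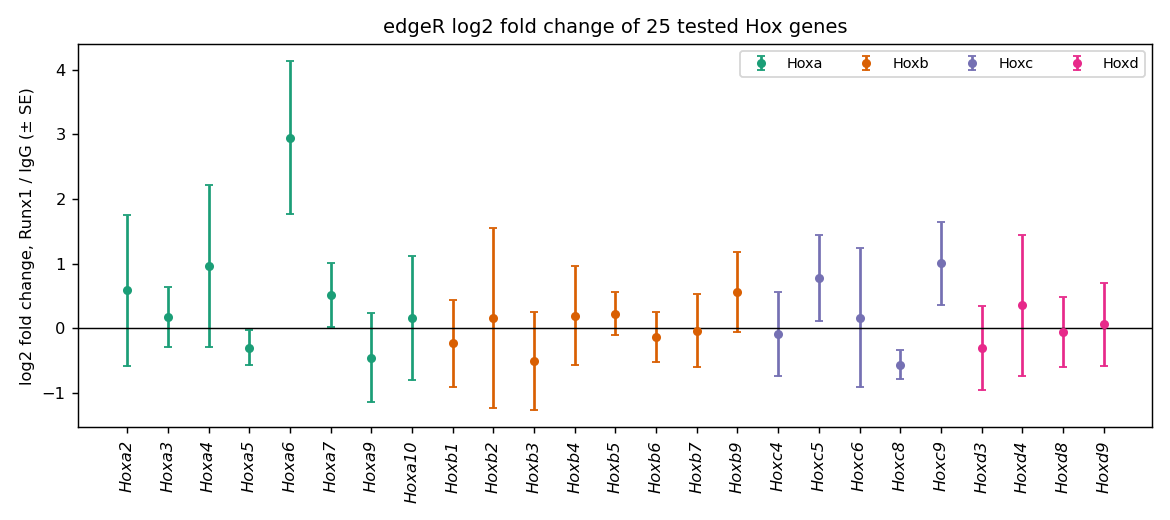
Log2 fold change of Runx1 over IgG from edgeR for 25 tested Hox genes, points with bars of 1 standard error, and a line at 0. Bars of 19 genes reach the line, Hoxc8 lies below it with the shortest bar (-0.56 ± 0.22) and Hoxa6 lies furthest above it with a long one (2.95 ± 1.18).

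Hoxc8 and Hoxa5, the most abundant members, had lower values with the Runx1 antibody. Hoxc8 stood at 198 and 172 CPM with Runx1 and at 232 and 303 CPM with IgG (185 ± 18.7 against 267 ± 50.5, SD, n = 2 each). Its log2 fold change in edgeR was -0.56 ± 0.22 (SE), with an adjusted p of 0.309. Hoxa5 stood at 116 and 127 CPM against 164 and 128 CPM, and its nearest libraries from different antibodies were almost equal. Its log2 fold change was -0.30 ± 0.27 with an edgeR adjusted p of 0.697. Neither passed the test.

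Hoxa6 had the largest log2 fold change of the members. Its counts were 28 and 16 with Runx1 and 3 and 6 with IgG, or 16.7, 8.48, 0.781 and 2.42 CPM. All libraries held few counts, and the gene passed the low-count filter only through its Runx1 libraries, so that a difference was needed for it to be tested. Its log2 fold change was 2.95 ± 1.18 with an edgeR adjusted p of 0.31. Hoxb4, which shares the homeobox run with it, had 11.9, 13.8, 9.89 and 12.1 CPM, with no gap between antibodies. The neighbours of Hoxa6 in the cluster gave smaller values in different directions, -0.30 for Hoxa5 and 0.52 ± 0.49 for Hoxa7.

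The other members whose libraries did not overlap and were higher with Runx1 did not pass the test. Hoxc9 stood at 28.6 and 27 CPM against 16.9 and 10.1 (log2 fold change 1.01 ± 0.64, edgeR adjusted p 0.542). For Hoxc5 the levels were 18.5 and 26 against 14.8 and 10.5 CPM (0.78 ± 0.67, edgeR adjusted p 0.681). Hoxa7 had 38.2 and 45 CPM against 28.9 and 28.2 (0.52 ± 0.49, edgeR adjusted p 0.713). For Hoxb9 they were 22.7 and 23.8 CPM against 16.1 and 14.5 (0.57 ± 0.62, edgeR adjusted p 0.759). Hoxa2, Hoxa4 and Hoxd4 completed the 8 with higher values, each with under 20 counts in every library.

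The remaining tested members overlapped between antibodies. Hoxb5 (0.23 ± 0.33, edgeR adjusted p 0.832) and Hoxb6 (-0.13 ± 0.39) had high counts and values near 0. Hoxa3 (0.18 ± 0.46), Hoxb1 (-0.23 ± 0.67), Hoxb7 (-0.033 ± 0.56), Hoxd8 (-0.049 ± 0.54) and Hoxd9 (0.067 ± 0.64) had wider errors. For these genes the replicates of 1 antibody differed by as much as the antibody means did, which vary less than single libraries.

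Replicates set the limit. Between the Runx1 replicates the tested Hox genes differed by a median of 1.58-fold, and 8 of the 26 by over 2-fold. IgG replicates differed by a median of 1.37-fold, with 7 over 2-fold. Means of the antibodies differed by a median of 1.21-fold, with 2 over 2-fold. A mean of 2 libraries varies less than 1 library, so that this value cannot be set directly beside the replicate values. Over all tested genes these medians were 1.51, 1.41 and 1.44. The order of the 39 members was alike in every pair of libraries, with Spearman's rho of 0.874 to 0.958 across genes, which are not independent replicates, and the highest value joined Runx1 replicate 2 and IgG replicate 2.

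None of the genes for partners of Hox proteins was called. Of 13 Hox cofactor genes, 12 were tested and 0 were called, against 0.645% of all tested genes. The median log2 fold change was 0.31, and 10 of the 12 were above 0. Their levels ranged widely, with Pbx4 at 1.72 CPM with Runx1 and 0.793 with IgG and Meis3 at 23.3 and 11 CPM. Meis2, a homeobox gene, had 550 ± 70.8 CPM with Runx1 and 466 ± 23 with IgG (SD, n = 2 each), and Tshz1, a zinc finger gene of the trunk, had 548 ± 27 and 442 ± 27.4 CPM.

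Signals that act on Hox genes in the caudal embryo were detected unevenly. Of 20 genes for caudal and retinoid inputs, 13 were tested and 0 were called (median log2 fold change 0.11). Cdx1, Cdx2 and Cdx4, the caudal homeobox genes that switch on trunk Hox genes in the tail bud, had no count in any library, and T, a marker of the tail bud and notochord, had 1. Fgfr1 had 268 CPM with Runx1 and 203 with IgG. Lin28b, an RNA-binding protein of early embryonic cells, had 175 and 236 CPM, and Nr6a1, a nuclear receptor that acts on trunk Hox genes, had 67.3 and 109 CPM.

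Chromatin regulators of the clusters gave 0 calls as well. All 15 Trithorax and MLL genes were tested, with a median log2 fold change of 0.037. Kmt2a, the MLL enzyme that keeps Hox genes active, had 261 ± 32.1 CPM with Runx1 and 328 ± 71.6 with IgG. Psip1, which tethers MLL to chromatin, had 280 and 243 CPM, and Dot1l, an H3K79 methyltransferase, had 180 and 153 CPM. Of 20 Polycomb genes 18 were tested, with a median of -0.15. Ezh2, the enzyme of the repressive complex, had 484 ± 14 and 556 ± 91.1 CPM, and Suz12, its partner, had 284 and 413 CPM (-0.57 ± 0.19, edgeR adjusted p 0.223). Asxl1 had 421 and 682 CPM (-0.73 ± 0.18, edgeR adjusted p 0.123).

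Most other annotated genes inside the clusters were not detected at this depth. Of 46 other annotated genes there, 29 had no count in any library, among them 7 of 7 microRNA genes, and 5 were tested with 0 called. From a list of Hox cluster non-coding RNAs, 16 of 19 were in the table and 8 were at 0 throughout, including Hotair and Hottip, the long RNAs of the Hoxc cluster and of the 5′ end of the Hoxa cluster. Hoxaas2 had counts of 120, 41, 138 and 71, Halr1 had 14, 30, 7 and 16, and Hoxd3os1 had 18, 5, 46 and 27. Hoxa11os, an antisense RNA at the 5′ end of the Hoxa cluster, had 0, 2, 0 and 1.

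Genes just outside the clusters were a further comparison. Of 21 flanking genes, 20 were in the table, 15 were tested and 0 were called, with a median log2 fold change of -0.29. Cbx5, a heterochromatin protein gene near Hoxc, had 1253 ± 49.1 CPM with Runx1 and 1821 ± 2.82 with IgG (-0.57 ± 0.10, edgeR adjusted p 0.0512). Hnrnpa1, a splicing factor gene, had 1233 and 1281 CPM, and Atp5g3, for an ATP synthase subunit, had 139 and 103 CPM. Evx1 and Evx2, homeobox genes at the 5′ ends of Hoxa and Hoxd, had no count in any library.

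Markers of cell types were looked up among the RNAs recovered from the sorted cells. All 15 endothelial markers had counts in all 4 libraries, with summed levels of 1628 to 1931 CPM. Markers of other cells that express Hox genes were also present. Mesenchymal markers summed to 1419 and 1458 CPM with Runx1 and 1324 and 1257 with IgG, somite and muscle markers to 346 to 363 CPM, and neural markers to 686 and 565 against 457 and 440 CPM. Haematopoietic markers summed to 298 and 563 against 374 and 349 CPM, erythroid markers to 867 and 898 against 502 and 459 CPM, and epithelial markers to 220 to 241 CPM. Of the markers only Olig2, a neural gene, was at 0 in all libraries. Limb and lateral plate markers summed to 121, 65.2, 126 and 106 CPM. Of all markers 1 was called, Tbx15, a T-box gene of limb and trunk mesoderm, with counts of 1, 2, 114 and 77 (-5.12 ± 0.88, edgeR adjusted p 0.049). It passed the low-count filter only through its IgG libraries. Tbx4, a hindlimb gene, had 0, 1, 8 and 2. All 4 libraries hold RNA recovered on beads, and none holds RNA from before the antibody step. A level here therefore also depends on how much of an RNA the beads held. In bulk samples fewer cells of a type and less RNA per cell cannot be told apart either. The part of these cells in the Hox values, including Hoxd12 and Hoxd13 in IgG replicate 1, was not tested.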

How the data were processed

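RIP-seq libraries of CD31-positive cells, 2 with a Runx1 antibody and 2 with IgG, were grouped by sample title. Per the labels' protocols, RNA held on protein A beads was reverse transcribed by a single-cell method and the cDNA sheared by sonication. No molecular identifiers are named. The authors deposited whole-number counts per Ensembl gene. The mm10 build and the tools Salmon 1.1.0, STAR 2.7.3a and Trimmomatic 0.36 are named in the submitters' processing notes. Not given in the sources used here are strand, annotation and whether the values are rounded estimates, which would split reads among similar genes.

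Symbols, exons and transcripts came from GENCODE M21, in which 55480 identifiers were found and 93 were not. The 92 spike-in rows (434 to 713 counts per library) stayed out of totals and tests. CPM is relative to gene counts, and CPM per kb divides it by merged exon length. The test was edgeR 4.0.16 (R 4.3.3), quasi-likelihood and two-sided, with TMM scaling, no block, and filterByExpr at its defaults (minimum count 10, minimum total 15). P-values were adjusted over all tested genes by Benjamini-Hochberg at 0.05. The standard error is the one implied by the test statistic. The procedure was tested on simulated counts. DESeq2 1.42.0 and limma-voom (limma 3.58.1) were alternatives, beside other scalings, other filters, a replicate block and each library left out. Homeobox sequences came from transcripts, in place of the planned homeodomain protein sequences, which were not used here, and 1 is printed.

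The members and the lists were chosen with earlier results of these data known. Tested Hox genes are named, and some items are not reported here. Of each pathway list, the genes called and the 3 with the highest mean are named, and other listed or flanking genes named (such as T, Hotair, Hoxa11os, Pbx4, Meis3, Evx1 and Tbx4) were picked after their values were seen.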

Additional observations from a re-analysis of the deposited data

How the results depend on the processing

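With 2 libraries a group, and 7 of the 26 tested Hox genes under 10 CPM, depth and replicate spread limit every value. The number of all genes called was 80 (38 higher, 42 lower), and it was 3933 when scaled to the spike-ins (19 higher, 3914 lower), 549 with no low-count filter, 284 with at least 10 counts in all libraries, 534 with DESeq2 and 222 with limma-voom. With library totals alone 38 were higher and 29 lower. Replicate differences were not correlated between the antibodies (0.00438 over 12401 genes). This cannot show whether libraries with the same replicate number share embryos or a sort. With a replicate block 2 genes were called. Leaving out 1 library gave 176 to 600.

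Hox genes called numbered 0 under every alternative except the spike-in scaling, which gave 3: Hoxa5 (log2 fold change -1.60, edgeR adjusted p 0.00686), Hoxb6 (-1.42, 0.0421) and Hoxc8 (-1.81, 0.00149). That scaling moved the median over all genes to -1.25 and that of the tested Hox genes to -1.19, and the summed ratio to -1.38. It rests on 434 to 713 spike-in counts per library, and the amount added is not given in the sources used here. The summed ratio ran from -0.17 to 0.045 with 1 library left out, above 0 only without Runx1 replicate 1. Members detected in all libraries numbered 26 at 3 counts and 19 at 10 counts, and 26 to 30 with 1 library left out, an alternative chosen after seeing the data.

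Values above 0 turned below 0 under spike-in scaling for 14 genes, namely Hoxa2 (-0.63), Hoxa3 (-1.18), Hoxa4 (-0.15), Hoxa7 (-0.77), Hoxa10 (-1.22), Hoxb2 (-0.96), Hoxb4 (-1.06), Hoxb5 (-1.05), Hoxb9 (-0.72), Hoxc5 (-0.54), Hoxc6 (-1.12), Hoxc9 (-0.32), Hoxd4 (-0.89) and Hoxd9 (-1.20). Signs also turned with limma-voom for Hoxb7 (0.029) and Hoxd9 (-0.085), and with the replicate block for Hoxd9 (-0.041). With 1 library left out, 12 of the genes described changed sign: Hoxa3 (-0.28 to 0.78), Hoxa9 (-0.97 to 0.36), Hoxa10 (-0.74 to 1.59), Hoxb1 (-1.12 to 0.33), Hoxb2 (-1.65 to 2.49), Hoxb5 (-0.21 to 0.52), Hoxb7 (-0.48 to 0.30), Hoxc4 (-0.43 to 0.14), Hoxc6 (-0.46 to 0.55), Hoxd3 (-1.32 to 0.25), Hoxd8 (-0.50 to 0.26) and Hoxd9 (-0.70 to 0.54). The other 13 kept their sign, among them Hoxc8 (-0.76 to -0.37) and Hoxa6 (2.30 to 3.88). The lone library left in an arm is assumed to vary like the others. Apart from the scaling factor itself, the cause of these changes was not tested.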

Other observations

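Some transcripts inside the clusters were unevenly spread between libraries. Gm53, an annotated gene within a Hox cluster, had counts of 0, 38, 2 and 0 in Runx1 replicates 1 and 2 and IgG replicates 1 and 2. Hoxaas3, an antisense gene of the Hoxa cluster, had 3 and 2 counts with Runx1 and 43 and 18 with IgG (log2 fold change -2.69 ± 1.20, edgeR adjusted p 0.359) and did not pass the test. It entered the test only through its IgG libraries. Haglr, at the Hoxd cluster, had counts of 33, 70, 150 and 70. These genes were picked out after their values were seen.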
